A study of Mus musculus with 4 samples.

Results

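The cells described here are endothelial barcodes of mouse liver that carry transcripts of the Wnt ligands Wnt2 and Wnt9b or of the Wnt enhancer Rspo3, and few transcripts of large-vessel or activated endothelium. A barcode was a member when at least 200 genes were detected and at most 20% of its unique molecular identifiers (UMIs, counts of single RNA molecules) were mitochondrial. It also needed at least 2 UMIs of Kdr, Ptprb, Egfl7 and Cdh5 together and at least 2 of Rspo3, Wnt2 and Wnt9b together. It could hold at most 1 UMI of the vascular genes Ednrb, Selp, Vwf and Cd34 together, and at most 1 of the leukocyte genes Cd3d, Cd3e, Cd79a, Clec4f and Csf3r together. By this rule 1133 of 24561 kept barcodes, out of 25899 in all, were members. The members were thus selected on the UMIs of these 16 genes, whose levels below are a description with no test.

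Hepatic nonparenchymal cells were profiled by droplet sequencing of the 3′ ends of transcripts. Each of the 4 groups was 1 library of 1 wild-type C57B6 mouse, 18 to 20 weeks old. The TAA mouse was injected intraperitoneally over 12 weeks with thioacetamide, which damages hepatocytes and scars the liver. In TAA+C7.5 and TAA+C30, gavage with celecoxib, an inhibitor of cyclooxygenase-2, was added to this at week 5, with 7.5 or 30 mg/kg. The control mouse received normal saline. After enzymatic dissociation and lysis of red cells, a slow spin removed most hepatocytes, so a share of barcodes describes the suspension and not the liver. With 1 mouse per group no difference between groups has a replicate check and no test was made. Parentheses give 95% intervals, all of them exact: binomial (Clopper-Pearson) for a share, Poisson for a level and conditional binomial for a ratio. They cover counting error only.

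In the liver lobule, blood runs through sinusoids from the portal tract to the central vein. Endothelial cells near the central vein secrete Wnt2, Wnt9b and R-spondin 3, which switch on beta-catenin in neighbouring hepatocytes and so set the pericentral programme of glutamine synthesis and xenobiotic metabolism. Wnt2 and Wnt9b are lipid-modified ligands of Frizzled receptors, and R-spondin 3 keeps those receptors at the cell surface by binding Lgr receptors and the ubiquitin ligases Znrf3 and Rnf43. In the GRCm38 assembly the genes lie on the minus strand, Wnt2 at chr6:17988940-18030585, Wnt9b at chr11:103727364-103749821 and Rspo3 at chr10:29452416-29535867.

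The libraries held 48419305 UMIs in 6915 barcodes (TAA), 17888247 in 6117 (TAA+C7.5), 27555592 in 6284 (TAA+C30) and 26603317 in 6583 (control). Kept barcodes had medians of 4632, 1994, 3138 and 3396 UMIs in the same order. The mitochondrial limit removed 193, 24 and 47 barcodes of the TAA, TAA+C7.5 and TAA+C30 libraries, against 678 of control. Any pair of libraries shared 9 to 14 barcode sequences, and a doublet caller marked between 0.799% and 2.83% of kept barcodes, among them 14 control members.

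Nearly all members came from the control mouse. The TAA library had 0 members among 6512 kept barcodes and the TAA+C30 library 0 among 6178. The TAA+C7.5 library had 12 among 6083 (0.197%, 0.102 to 0.344) and the control library 1121 among 5788 (19.4%, 18.4 to 20.4). Taking 3 counts as the limit that a count of 0 allows, the share was at least 420 times lower in TAA and at least 399 times lower in TAA+C30 than in control, and in TAA+C7.5 it was 98.2 times lower. Fewer such cells in the liver, fewer recovered from it, and less Wnt RNA or more vascular RNA per cell cannot be told apart by this count.

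All endothelial cells were scarcer in the TAA libraries, so the members were next counted among endothelial barcodes (the same filters and endothelial and leukocyte limits, with no Wnt or vascular condition). The members made up 0 of 396 endothelial barcodes in TAA, which allows a share of up to 0.758%, and 0 of 77 in TAA+C30, which allows up to 3.90%. They were 12 of 121 in TAA+C7.5 (9.92%, 5.23 to 16.7) and 1121 of 3014 in control (37.2%, 35.5 to 38.9). A low limit of 2 endothelial UMIs lets other cell types in, in the TAA libraries most. In TAA, the endothelial barcodes with no Wnt and at most 1 vascular UMI held 31137 CPM (UMIs per 1000000 UMIs of the same barcodes) of the cholangiocyte markers and 419 CPM of Kdr, Ptprb, Egfl7 and Cdh5, which stood at 10212 CPM in the control members.

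Barcodes in which these 4 endothelial genes made up at least 0.5% of UMIs, a limit added after the data were seen, are called endothelial-rich here. They numbered 220 in TAA (3.38% of kept barcodes, 2.95 to 3.85), 65 in TAA+C7.5 (1.07%, 0.826 to 1.36), 12 in TAA+C30 (0.194%, 0.100 to 0.339) and 2573 in control (44.5%). Among them, at least 2 Wnt-gene UMIs were found in 76 barcodes of TAA (34.5%, 28.3 to 41.2), 29 of TAA+C7.5 (44.6%, 32.3 to 57.5), 5 of TAA+C30 (41.7%, 15.2 to 72.3) and 1162 of control (45.2%, 43.2 to 47.1). Wnt-carrying endothelial cells were thus found in all 4 libraries, in shares of endothelial-rich cells whose intervals overlapped between each celecoxib library and control.

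Both the Wnt limit and the vascular limit kept TAA barcodes out. The 148 TAA endothelial barcodes with no Wnt UMI and at most 1 vascular UMI failed the Wnt limit, and the 97 that carried Wnt genes all failed the vascular one. Only 23 of the 148 were endothelial-rich, and the 148 are the set with the cholangiocyte RNA given above. Many of them may thus be other cells. All 97 Wnt-carrying endothelial barcodes of TAA held at least 2 vascular UMIs, with a median of 35, and all 7 of TAA+C30 held at least 6, with a median of 16. In TAA+C7.5, 12 of 31 held at most 1, with a median of 4 over the 31. In control, 1121 of 1211 held at most 1 and 1048 of them held none.

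**Figure D1:**
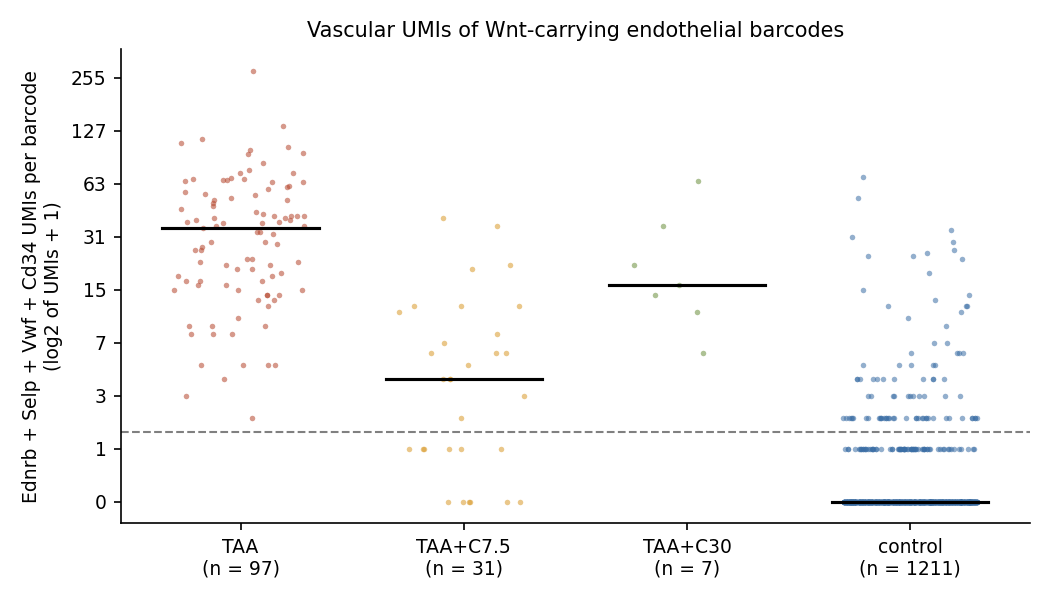
Summed UMIs of Ednrb, Selp, Vwf and Cd34 (vertical axis, log2 of UMIs + 1, labelled in UMIs) in each endothelial barcode with at least 2 UMIs of Rspo3, Wnt2 and Wnt9b, by library. Points are barcodes, black lines medians, and the dashed line separates members (0 or 1 UMI) from the rest: all 97 TAA barcodes lie above it and 1121 of 1211 control barcodes below.

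Depth touches both counts, since the Wnt-carrying barcodes had medians of 14035 UMIs in TAA, 4773 in TAA+C7.5, 10200 in TAA+C30 and 6334 in control. Endothelial-rich barcodes were therefore thinned at random to 3000 UMIs each, which left out 28, 22, 5 and 996 shallower ones in the same order. At this depth 22 of 192 TAA barcodes (11.5%, 7.32 to 16.8) held at least 2 Wnt-gene UMIs, against 18 of 43 in TAA+C7.5 (41.9%, 27.0 to 57.9), 3 of 7 in TAA+C30 (42.9%, 9.90 to 81.6) and 649 of 1577 in control (41.2%, 38.7 to 43.6). At least 2 vascular UMIs were held by 84.9% in TAA, 65.1% in TAA+C7.5, 7 of 7 in TAA+C30 and 5.07% in control, where the unthinned shares were 88.2%, 56.9%, 66.7% and 5.79%. Both conditions of the rule, Wnt genes present and vascular genes low, were met by 2 barcodes in TAA (1.04%), 8 in TAA+C7.5 (18.6%), 0 in TAA+C30 and 611 in control (38.7%). At equal depth the TAA library thus had a lower share of Wnt-carrying cells than control as well as a higher share of vascular-gene cells, while in TAA+C7.5 the Wnt interval included the control share.

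**Figure D2:**
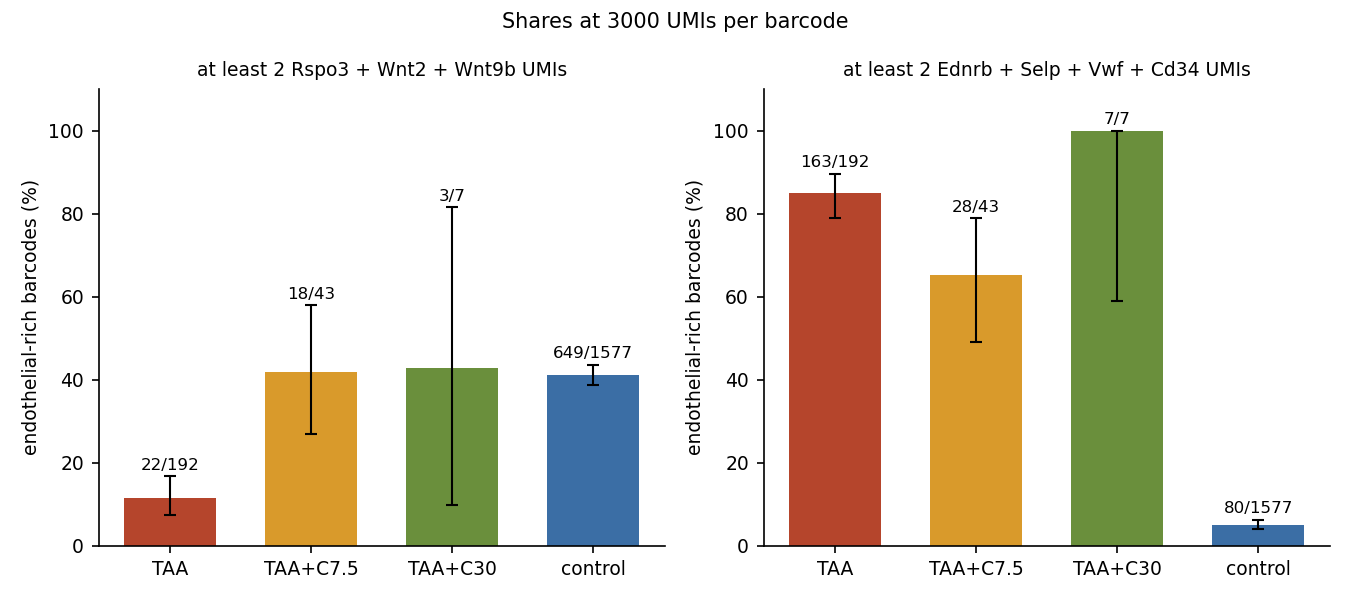
Share of endothelial-rich barcodes (vertical axis, %) with at least 2 Wnt-gene UMIs (left) and with at least 2 vascular UMIs (right) in each library after thinning to 3000 UMIs per barcode. Bars are shares with exact 95% intervals and the numbers above are barcodes: TAA is at 11.5% for the Wnt genes and 84.9% for the vascular genes, control at 41.2% and 5.07%.

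Free RNA, or another cell under the same barcode, can give UMIs to cells that do not express a gene. Among B cells, which should lack all 3 Wnt genes, at least 2 Wnt-gene UMIs were found in 0.554% of 1445 cells in TAA, 0.0750% of 1333 in TAA+C7.5, 0.139% of 722 in TAA+C30 and 2.96% of 912 in control. B cells had medians of 3503, 1762, 2122 and 3292 UMIs in that order. At least 2 UMIs of the 4 endothelial genes were found in 1.59%, 0.375%, 0.139% and 14.4% of them. At least 1 Wnt-gene UMI was found in 11, 1, 1 and 67 B cells, of which 8, 1, 1 and 27 held at least 2. Whether these UMIs came from free RNA or from a 2nd cell was not tested. The control background was the highest, and its 2.96% for the Wnt genes lay far below the 41.2% of thinned control endothelial cells.

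Summed over the endothelial-rich cells, Wnt2 stood at 165 CPM in TAA, 543 in TAA+C7.5, 296 in TAA+C30 and 460 in control. It was 2.79 times lower in TAA than in control (2.53 to 3.09), while the ratio of TAA+C7.5 to control was 1.18 (0.997 to 1.39). Rspo3 was at 16.9 CPM in TAA, 309.8 in TAA+C7.5, 829.9 in TAA+C30 and 153 in control, 9.06 times lower in TAA than in control (6.72 to 12.5) and 5.44 times higher in TAA+C30 (4.09 to 7.09). Wnt9b was at 16.1, 91.1, 193 and 32.6 CPM in the same order. In TAA+C30, 1 of the 12 barcodes held 11 Wnt9b UMIs and was the only one with at least 2. Rspo3 sat in few barcodes: 1 barcode held 42 of the 44 Rspo3 UMIs of TAA, 42 of the 56 of TAA+C30 and 25 of the 85 of TAA+C7.5, against 145 of 1882 in control. Wnt2 was spread more widely, with at most 18 of 430 UMIs in 1 barcode of TAA and at least 2 UMIs in 75 of the 220.

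In the control members Wnt2 led. It stood at 673 CPM (654 to 692) with a UMI in 1102 of 1121 members (98.3%), against 70.1 CPM of Rspo3 (64.2 to 76.5) in 177 members (15.8%) and 25.7 CPM of Wnt9b (22.1 to 29.7) in 124 (11.1%). Wnt2 alone brought 1067 members to the limit of 2 UMIs, and 871 (77.7%) held no UMI of the other two genes. A member held a median of 4 Wnt-gene UMIs and at most 42, and 306 members sat exactly at 2. Kdr, the VEGF receptor of endothelium, was at 3632 CPM and Ptprb, an endothelial tyrosine phosphatase, at 4073 CPM.

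Most Rspo3 and Wnt9b UMIs of control endothelium lay outside the members. The members held 83.0% of the 5835 Wnt2 UMIs of control endothelial barcodes, but 25.9% of the 1950 Rspo3 UMIs and 45.8% of the 404 of Wnt9b. The 90 control endothelial barcodes that carried Wnt genes together with at least 2 vascular UMIs held 72.9% of the Rspo3 and 52.7% of the Wnt9b UMIs, and 8.19% of those of Wnt2. In these 90, Rspo3 was at 2017 CPM, Wnt9b at 302, Vwf (von Willebrand factor of large vessels) at 525 and Selp (P-selectin) at 368. The label of pericentral Wnt-expressing endothelium thus applies to the members by Wnt2, while the cells with the most Rspo3 and Wnt9b were removed by the vascular limit. The members are called Wnt2-led cells below.

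Sinusoidal identity genes were present in the members at high levels. The scavenger receptors Stab1 and Stab2 stood at 1603 and 1627 CPM in endothelial-rich members, the C-type lectin Clec4g at 3065, the mannose receptor Mrc1 at 2845 and the transcription factor Gata4, which sets sinusoidal fate, at 254.7. Against endothelial-rich Wnt-negative cells, 0 of the 18 sinusoidal genes measured differed by 2-fold, with a median log2 ratio of 0.13 beside 0.03 for all genes. Of the 8 genes of the lymphatic list, Pdpn, Ccl21a and Nts were at 0 in the members. Flt4 and Lyve1, which are also on the sinusoidal list, stood at 930 and 355 CPM in all control members.

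The 12 members of TAA+C7.5 were also Wnt2-led. They carried 38 UMIs of Wnt2 (675 CPM, 478 to 927), 3 of Wnt9b and 0 of Rspo3. Control members had 673 CPM of Wnt2. As Wnt2 is a gene of the rule, the limit of 2 UMIs and the depth help set both levels. Median depth was 3795.5 UMIs in these 12 and 6258 in control members, so the 2 levels do not compare the cells. Wnt2 UMIs per barcode were 2 in 6 of the 12, 3 in 2, 4 in 3 and 8 in 1. Kdr was at 2435 CPM and the barcodes held between 660 and 9545 UMIs.

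Within control, the members were set against the 1196 endothelial barcodes with no UMI of the 3 Wnt genes and at most 1 vascular UMI, the Wnt-negative sinusoidal cells. Of 12136 genes with at least 30 UMIs in the 2 populations together, 39 (0.321%) were at least 2-fold higher in the members on the log2(CPM + 10) scale and 667 (5.5%) at least 2-fold lower. This lopsided count went with other cells' RNA. Cholangiocyte markers summed to 443 CPM in the members and 4996 in the Wnt-negative cells, and hepatocyte markers to 518 and 5013. The 12 lowest genes were Siglech, Ccl4, Ccr9, Ly6d, Spp1, Mpeg1, Tyrobp, Clu, Sorbs2, Cd74, Ly6c2 and Cox6a2, several of them leukocyte or bile duct genes, and all 10 measured genes of class II antigen presentation were at least 2-fold lower. The members were also deeper, with a median of 6258 UMIs against 1611 and 4.61% against 8.21% mitochondrial UMIs.

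Restricted to endothelial-rich barcodes (1076 members and 878 Wnt-negative cells), 18 of 11000 genes (0.164%) were at least 2-fold higher in the members and 17 (0.155%) lower. Hepatocyte markers then summed to 407 and 648 CPM, cholangiocyte markers to 144 and 73.3, and 0 of the 7 class II genes measured differed by 2-fold. The results below are of this comparison unless another is named, and it was chosen after the first had been seen.

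Genes known from pericentral sinusoids were higher in the Wnt2-led cells. Of 16 measured genes of the pericentral endothelial list, 6 were at least 2-fold higher and 0 lower, with a median log2 ratio of 0.73 beside 0.03 for all genes. Without the restriction the counts were 10 and 0 and the median 1.16. Kit, the stem cell factor receptor, stood at 635 CPM in the Wnt2-led cells and 242 in the Wnt-negative cells (log2 ratio 1.36). Cdh13, a cadherin held by a lipid anchor, stood at 246 and 60.9 CPM, 4.04 times higher (3.41 to 4.81).

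Thbd, which encodes the anticoagulant thrombomodulin, was at 321 CPM in the Wnt2-led cells and 121 in the Wnt-negative cells. Lhx6, a LIM homeobox factor, was at 54.6 and 9.06 CPM and was the only one of the 27 measured genes of the transcription factor list that differed by 2-fold. Mecom, a transcription factor outside that list, was at 14.04 and 60.5 CPM (log2 ratio -1.55). Lfng, a glycosyltransferase that tunes Notch receptors, was at 118 and 42.0 CPM. Fabp4, a fatty acid carrier, and the phospholipid phosphatase Plpp1 were higher by less than 2-fold, with log2 ratios of 0.87 and 0.79, and Wls, the cargo receptor that every Wnt needs for secretion, was nearly level at 252 and 228 CPM.

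Ptgs1, the constitutive cyclooxygenase, was higher in the Wnt2-led cells, at 503 CPM against 219 (log2 ratio 1.17). Ptgs2, the inducible enzyme that celecoxib inhibits, was near the limit of detection, at 5.73 and 2.47 CPM. The prostaglandin transporter Slco2a1 stood at 534 and 325 CPM (log2 ratio 0.70). Of the 9 genes of prostanoid metabolism measured, Ptgs1 was the only one past 2-fold.

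Other genes of the members' upper end were Sema3d, a secreted guidance factor (102 CPM in the Wnt2-led cells, 29.6 in the Wnt-negative cells), Ltc4s, which makes a leukotriene (log2 ratio 1.09), the ribonuclease Rnase4 (log2 ratio 1.07) and the chemokine scavenger Ackr4 (log2 ratio 1.04). Gja4, a connexin usually set among arterial and periportal genes, stood at 374 and 191 CPM, just under 2-fold. Among the 13 measured of 29 listed genes of Wnt secretion, reception and response 0 differed by 2-fold, with a median log2 ratio of 0.22. Several target genes were scarcely detected. All control members together held 21 UMIs of Axin2, 3 of Lef1, 3 of Apcdd1, 1 of Lgr5 and 1 of Notum, though 563 of Nkd1. A response in genes below the limit of detection was not tested. Fzd4, a Frizzled receptor, was at 335 and 259 CPM and the co-receptor Lrp6 at 282 and 229.

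As a set, genes of periportal and midlobular endothelium were lower in the Wnt2-led cells. Of 16, 6 were at least 2-fold lower and 0 at least 2-fold higher, with a median log2 ratio of -0.74. Not all ran this way: Gja4, given above, and Clu (log2 ratio 0.89) were higher by less than 2-fold. Msr1, a class A scavenger receptor, stood at 117 CPM in the Wnt2-led cells and 559 in the Wnt-negative cells, 4.77 times lower (4.37 to 5.21). The fatty acid transporter Cd36 was at 233 and 666 CPM, and the netrin Ntn4 at 219 and 679. The arterial Notch and ephrin ligands Dll4 and Efnb2 were at 66.9 and 159 CPM and at 56.0 and 151 CPM. Ly6a, a surface antigen of many vessels outside the liver sinusoids, was at 181 and 499 CPM. Of the periportal list, Ltbp4 and Adam23 were lower by less than 2-fold (log2 ratios -0.78 and -0.76), and Lyve1, the hyaluronan receptor of sinusoids, was nearly level at 365 and 395 CPM.

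Other gene groups held few genes past 2-fold. Of 18 angiocrine factors measured 1 was lower, the lymphangiogenic factor Vegfc with 4 UMIs in the Wnt2-led cells (0.573 and 14.4 CPM), and 0 were higher, with Gas6, the ligand of Axl and Mertk, at 652 and 389 CPM (log2 ratio 0.73). None of 13 BMP and TGF-beta genes, 14 VEGF and angiopoietin genes and 19 interferon genes differed by 2-fold, with median log2 ratios of 0.00, 0.05 and -0.27. Of 15 cell cycle genes 2 were higher, Top2a at 19.5 and 2.06 CPM and Stmn1 at 35.1 and 12.3, and few barcodes carried such RNA: 5 of all 1121 control members held 66.9% of their UMIs of 9 cycle genes. Esm1, a gene of sprouting endothelial tips, was at 3.30 and 49.4 CPM, and Plvap, which forms the diaphragms of capillary pores, at 221 and 105.

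**Figure D3:**
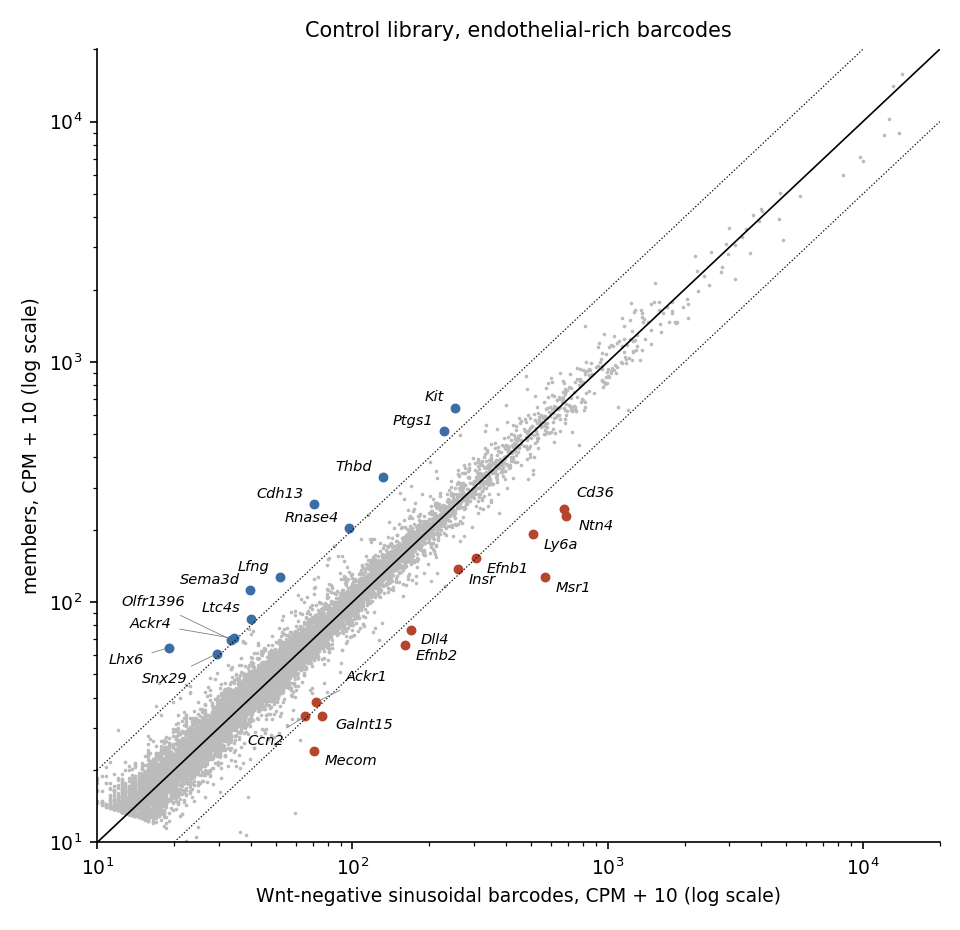
Level of each measured gene in control endothelial-rich members (vertical axis, CPM + 10, log scale) against control endothelial-rich Wnt-negative sinusoidal cells (horizontal axis, CPM + 10, log scale), without the 16 genes of the rule. Blue and red points are the 12 highest and 12 lowest genes by the naming rule, the solid line is equality and dotted lines mark 2-fold; Cdh13, Lhx6 and Kit lie above and Msr1, Cd36 and Ntn4 below.

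Because deeper barcodes reach the limit of 2 Wnt UMIs more easily, the Wnt-negative cells were also weighted to the members' depth in 8 bins of total UMIs (1008 members, 739 Wnt-negative cells). The log2 ratios became 2.24 for Cdh13, 2.23 for Lhx6, 1.53 for Kit and 1.28 for Ptgs1. They became -2.52 for Msr1, -1.62 for Cd36 and -1.66 for Efnb2. Each of these was further from 0 than without weighting. The median of the pericentral endothelial list went from 0.73 to 0.82. Not every gene moved outward: Gja4, just under 2-fold without weighting, went to 0.75.

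Levels were next compared across amounts of Wnt RNA for 24 genes chosen after their values were seen, of which 6 were higher at every step, 7 lower at every step and 11 neither. Endothelial-rich, low-vascular control barcodes thinned to 3000 UMIs were split by their Wnt-gene UMIs into 0, 1, 2, 3 and 4 or more, with 507, 355, 259, 146 and 175 barcodes. Kit stood at 316, 462, 673, 685 and 882 CPM and Cdh13 at 79.6, 142, 246, 288 and 390.5 CPM. Lhx6 was 12.2 times higher at the top than at 0 Wnt UMIs (112 and 9.20 CPM), Fabp4 3.87 times higher (1562 and 404 CPM) and Ptgs1 2.58 times higher (672 and 260 CPM). These 5 genes and Plpp1 were higher at every step. Thbd (147, 215, 310.2, 301 and 547 CPM), Sema3d, Lfng and Gja4 were higher at the top than at 0 but not at every step.

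Msr1 ran the other way, at 486, 233, 119.7, 95.9 and 34.3 CPM, and was 14.2 times lower in the barcodes with 4 or more Wnt UMIs than in those with 0. Efnb2 was 5.50 times lower, Cd36 3.999 times, Dll4 3.51 times, Lyve1 2.09 times, Adam23 2.07 times and Ltbp4 1.80 times, each lower at every step. Ntn4, Ly6a and Efnb1 were lower at the top than at 0 but not at every step. The sinusoidal genes Stab2 and Clec4g and the angiocrine factor Bmp2 were nearly level: Stab2 was 1.14 times and Bmp2 1.12 times higher at the top, and Clec4g was 1.13 times lower. The steps are means over bins, and whether single cells were graded or mixed from separate populations was not tested. Barcodes on both sides of the Wnt limit were also compared unthinned and without the endothelial-rich limit. The 306 control members with 2 Wnt UMIs had 467 CPM of Kit and 209 of Msr1. The 533 low-vascular endothelial barcodes with 1 Wnt UMI had 347 and 271. Median depth was 4150.5 UMIs in the 306 and 2888 in the 533.

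**Figure D4:**
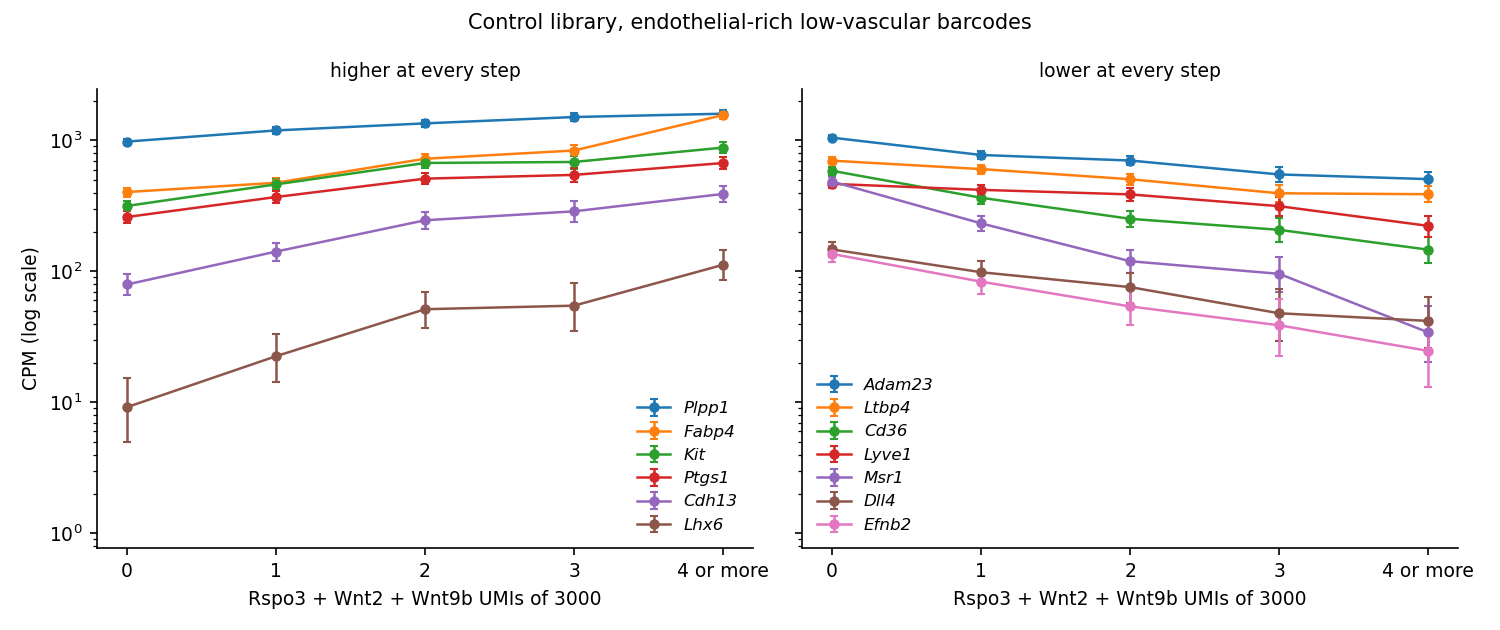
Level (vertical axis, CPM, log scale) of genes that were higher (left) or lower (right) at every step of Wnt-gene UMIs (horizontal axis) in control endothelial-rich barcodes with at most 1 vascular UMI, thinned to 3000 UMIs. Points are summed levels with exact Poisson 95% intervals; Lhx6 is 12.2 times higher and Msr1 14.2 times lower in the last bin than in the first.

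Across 2383 control sinusoidal barcodes thinned to 1000 UMIs, the genes whose per-cell log level was most like the summed Wnt genes were Cdh13 (Pearson r 0.19), Fabp4 (0.16), Kit (0.16), Selenop (0.15), Cyp26b1 (0.15), Ptgs1 (0.14), Thbd (0.14), Ehd3 (0.14), Olfm1 (0.14) and Bgn (0.13). Msr1 (-0.17) and Cd36 (-0.14) were the least like, followed by Btg1, Laptm5, Tyrobp, Lsp1, Plk2, Cd52, H2-Ab1 and Celf2. Several of these are leukocyte genes, and the barcodes were not limited to endothelial-rich ones. The part of other cells' RNA in this ranking was not tested. All points share 1 library, so these weak values are a description only.

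The members varied among themselves with Rspo3. The 160 endothelial-rich members with an Rspo3 UMI were set against the 916 with none, and 24 of 10437 genes (0.23%) were at least 2-fold higher and 14 (0.134%) lower. Fabp4 stood at 2143 CPM in the Rspo3-carrying members and 667 in the others, Lhx6 at 145 and 40.6, Cdh13 at 461 and 213, and Rdx, a linker of actin to the membrane, at 398 and 125. Msr1 was at 26.6 and 131 CPM, Cd36 at 66.0 and 259, Adam23 at 308 and 688, and Lyve1 at 187 and 393. Of the pericentral endothelial list 3 of 16 genes were at least 2-fold higher and 0 lower, and of the periportal and midlobular list 0 higher and 5 of 16 lower. Kit (843 and 603 CPM), Ptgs1 (659.8 and 479 CPM) and Ntn4 (172 and 226 CPM) were within 2-fold, and Rab3b stood at 14.9 and 33.1 CPM.

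Against the 90 Wnt-carrying cells with vascular UMIs, 71 of 10865 genes (0.653%) were at least 2-fold higher in the members and 165 (1.52%) lower. Lyve1 stood at 355 CPM in the members and 61.0 in the vascular cells, Cd36 at 229 and 58.2, and Adam23 at 624 and 180.3. The genes lowest in the members included Dcn, a matrix proteoglycan, at 15.4 and 442 CPM, elastin (Eln), Edn1, which encodes the vasoconstrictor endothelin, at 4.58 and 153, and Bmp4 at 0.417 and 89.4. Stellate and fibroblast markers summed to 178 CPM in the members and 1039 in the vascular cells, and their part in these differences was not tested.

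The zonation of the hepatocyte RNA carried by the barcodes had overlapping intervals in the 2 endothelial-rich populations. Pericentral hepatocyte genes made up 66.6% (65.3 to 67.9) of zonated hepatocyte UMIs in the members and 66.4% (64.4 to 68.3) in the Wnt-negative cells. Glul, glutamine synthetase, supplied most of these UMIs and is also expressed outside hepatocytes. Over genes at least 10-fold higher in 23 hepatocyte barcodes than in endothelial ones, the shares were 37.0% (34.9 to 39.2) and 36.4% (33.3 to 39.5). They depended on Alb, a gene of the periportal list. Without it they were 61.1% (58.2 to 63.9) and 59.0% (54.9 to 63.0). In all members and all Wnt-negative cells the shares were 61.4% and 26.1%, where the hepatocyte markers differed as given above.

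As the TAA library had no members, its cells could be set against control only among all Wnt-carrying endothelial barcodes, 97 in TAA and 1211 in control. These sets differ in make-up, since all 97 and only 90 of the 1211 held at least 2 vascular UMIs. Of 11319 genes, 325 (2.87%) were at least 2-fold higher in TAA and 131 (1.16%) lower. The balance turned with the processing, with 308 higher and 737 lower when barcodes were thinned to 1000 UMIs, and 656 and 712 when 1 CPM was added in place of 10. After thinning, the smaller TAA set holds few UMIs, so a gene of low level can be called lower from very few counts. Genes of the vascular limit led, which the members lack by rule: Ednrb, the endothelin B receptor, stood at 1884 CPM in TAA and 6.07 in control, and Selp at 529 and 37.5. Ltbp4, which binds latent TGF-beta, was at 55.1 CPM in TAA and 417 in control, 7.56 times lower (6.07 to 9.53).

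The pericentral endothelial list was split in the TAA cells, with 2 of 17 measured genes at least 2-fold higher, 3 lower and a median log2 ratio of -0.32 beside -0.04 for all genes. Lfng was at 32.9 CPM in TAA and 121 in control, Cdh13 at 98.1 and 274, and Dkk3, a secreted modulator of Wnt signalling, at 33.6 and 81.5. Rab3b, a GTPase of regulated secretion, was 8.34 times higher (7.06 to 9.86), at 248 and 29.7 CPM, and the guidance receptor Robo1 stood at 57.1 and 20.9. Kit was at 398 and 634 CPM and Lhx6 at 65.2 and 73.4, both within 2-fold.

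Of the 16 periportal and midlobular genes, 4 were at least 2-fold higher in the TAA cells (Cd36, Msr1, Il1a and Efnb2) and 1, Ltbp4, lower. Cd36 stood at 1047 CPM in TAA and 214 in control and Msr1 at 336 and 109. Both are genes that were low where Wnt genes were high in control. Sinusoidal identity genes were all within 2-fold, with a median log2 ratio of -0.39, and Mrc1 stood at 1369 and 2707 CPM.

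Inflammatory genes were higher in the TAA cells. Of 19 interferon genes, 9 were at least 2-fold higher and 0 lower (median log2 ratio 0.90), among them the GTPase Iigp1 at 1215 CPM in TAA and 257 in control and Isg15 at 152 and 16.7. Of 18 adhesion and leukocyte traffic genes, 6 were higher and 0 lower (median 0.67). Among these the chemokine Cxcl10 stood at 1385 and 230.1 CPM, Vcam1 at 891 and 265, and Sele, E-selectin, at 100.1 and 11.6.

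Markers of myeloid cells and of tissue handling were higher as well. Kupffer and macrophage markers summed to 497 CPM in TAA and 153 in control and monocyte and neutrophil markers to 484 and 109. Of 20 dissociation and immediate early genes, 7 were at least 2-fold higher and 1 lower, with Atf3 at 253 and 45.7 CPM. Erythroid markers ran the other way, at 22.2 and 1779 CPM. Their part in the differences was not tested.

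Cell cycle genes were higher in the TAA cells in 12 of 16 measured, with 0 lower and a median log2 ratio of 1.46. Mki67 stood at 69.9 CPM in TAA and 13.3 in control and Top2a at 108 and 20.9. Few barcodes carried them: 9 of 97 in TAA (9.28%) and 12 of 1211 in control (0.991%) held at least 5 UMIs of 9 cycle genes, and the 5 highest barcodes held 82.9% of these UMIs in TAA and 66.2% in control.

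Paracrine and prostanoid genes also differed. Hgf, the growth factor of hepatocytes, was 3.29 times higher in the TAA cells (2.88 to 3.76), at 247 CPM in TAA and 74.9 in control, and Gas6 was at 275 and 662 CPM. Slco2a1 was 2.21 times higher (2.09 to 2.34), at 1159.5 and 524 CPM, while Ptgs1 stood at 378 and 517. Ptgs2 had 6 UMIs in TAA and 48 in control, 4.03 and 6.07 CPM.

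In the TAA+C7.5 library the comparison rested on 31 Wnt-carrying barcodes with 166113 UMIs. Of 10910 genes, 372 (3.41%) were at least 2-fold higher than in control and 657 (6.02%) lower. The control barcodes held 7903558 UMIs. With so few UMIs in TAA+C7.5, a gene of low level can be called lower there from a count of 0. How many of the lower genes this made up was not tested, here or in the comparison with TAA below. Ednrb stood at 1102 CPM in TAA+C7.5 and 6.07 in control, Rab3b at 211 and 29.7, and Ltbp4 at 24.1 and 417. The pericentral endothelial list had a median log2 ratio of -0.00, with 3 of 17 genes at least 2-fold higher and 0 lower. Against the 97 TAA cells, 130 of 7180 genes (1.81%) were at least 2-fold higher in TAA+C7.5 and 447 (6.23%) lower, and the same list had 3 genes higher, 0 lower and a median of 0.33. TAA+C7.5 and TAA enter separate comparisons with the same control library.

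Over endothelial-rich barcodes, where all 4 libraries can be set side by side, some pericentral genes were lower in TAA than in control and others higher. These sets differ in make-up. At least 2 vascular UMIs were held by 88.2% of them in TAA, 56.9% in TAA+C7.5, 66.7% in TAA+C30 and 5.79% in control. The part of this in the differences below was not tested. Cdh13 was at 49.8 CPM in TAA, 164 in TAA+C7.5, 163 in TAA+C30 and 203 in control. It was 4.08 times lower in TAA than in control (3.42 to 4.91), while the intervals of the ratio to control included 1 in TAA+C7.5 (0.587 to 1.08) and in TAA+C30 (0.400 to 1.44). Kit was at 295, 434, 622 and 505 CPM and Ptgs1 at 269, 394, 474 and 422 CPM in the same order, and for both genes the interval of the ratio to control lay below 1 in TAA only. The intervals of TAA+C7.5 and TAA+C30 rest on 65 and 12 barcodes, and differences among the TAA libraries were not tested. Fabp4 was higher than in control in each of them, at 1098, 1593, 1763 and 881 CPM, and Thbd stood at 345, 386, 400.1 and 273 CPM.

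A further set of genes lay on the same side of control in all 3 TAA libraries. Ltbp4 was at 176 CPM in TAA, 117 in TAA+C7.5, 208 in TAA+C30 and 557 in control, and Ednrb at 1929, 973, 2045 and 48.7 CPM. Rab3b was at 169.7, 164, 133 and 24.98 CPM and Ly6a at 1216, 955, 1230.0 and 324 CPM. Each of these 4 genes had a ratio to control whose interval lay on the same side of 1 in TAA, TAA+C7.5 and TAA+C30. The intervals cover counting error only, and the 3 ratios share 1 control library. Ednrb is itself a gene of the vascular limit.

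**Figure D5:**
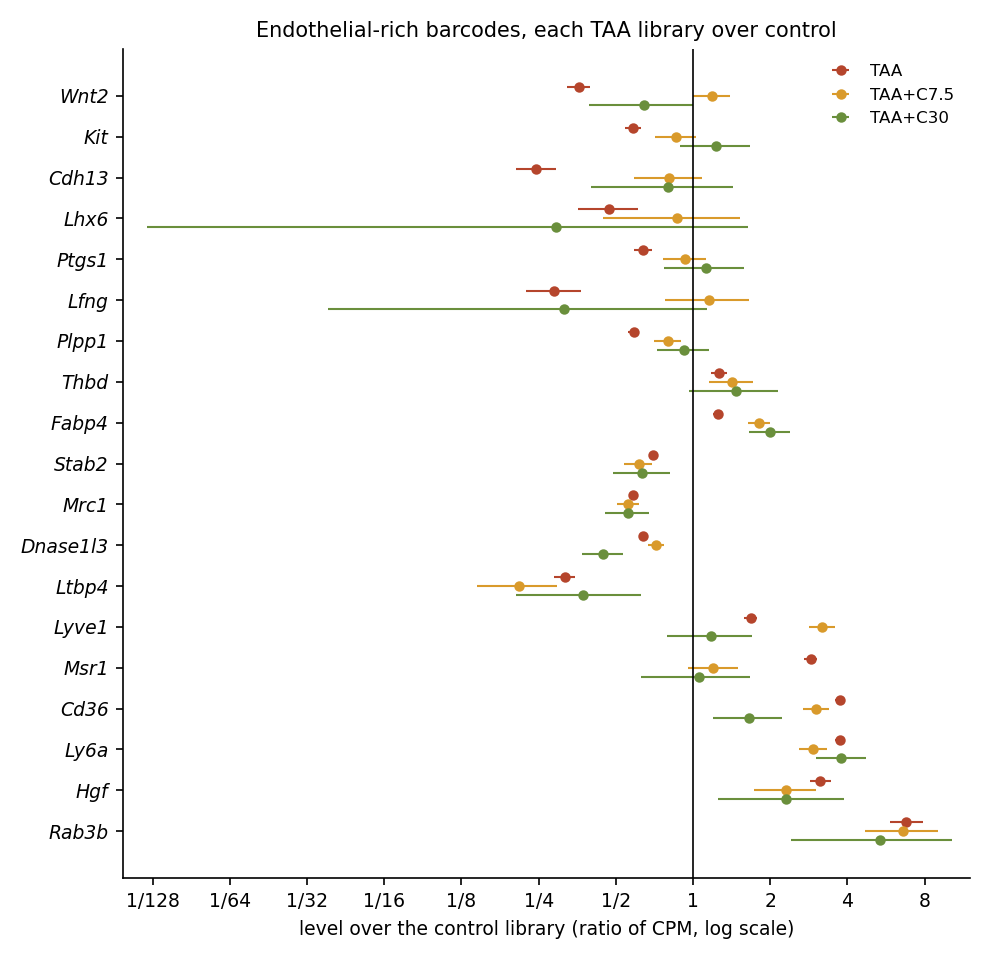
Ratio of the level in each TAA library to the level in control (horizontal axis, ratio of CPM, log scale) over endothelial-rich barcodes (220 in TAA, 65 in TAA+C7.5, 12 in TAA+C30, 2573 in control) for 19 genes. Points are ratios with exact 95% conditional binomial intervals and the vertical line is equality; for Wnt2 and Cdh13 the TAA point lies furthest left, while Ltbp4 lies left and Rab3b right of the line in all 3.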

How the data were processed

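UMI counts per gene and barcode were used as deposited by the authors for 4 libraries of hepatic nonparenchymal cells. Per the submitters' processing notes, reads were handled with Cell Ranger 3.1.0 and the build was mm10, and all 55450 gene IDs matched GENCODE M21. No ambient RNA correction by the authors is given in the sources used here, and doublets were marked with Scrublet in Scanpy 1.11.5 (expected rate 5%) but kept. The members, the 30 gene lists and the comparisons were chosen with earlier results of these data known.

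UMIs were summed per population and library and scaled to CPM. Log2 ratios had 10 CPM added to both sides, a gene was measured with at least 30 UMIs in both populations together, and at least 2-fold was called. A fold of a low gene is understated on that scale. The 16 rule genes were left out within control, and between libraries all but the 4 vascular ones. Genes are named by a rule: the 12 highest and 12 lowest within control (6 between libraries) among genes of at least 50 CPM, up to 4 of each list with the largest ratio, all pericentral endothelial genes, Ptgs1 and Ptgs2. Other genes named, such as those of the steps of Wnt UMIs, were chosen after their values were seen. B cells held at least 3 UMIs of Cd79a and Cd79b. The calls were run on simulated summed counts with known changes larger than the 2-fold limit. The simulation held no variation between cells and no difference in other cells' RNA. It therefore does not test calls near 2-fold or those effects. Python 3.11.15, numpy 2.4.6, scipy 1.17.1 and pandas 2.3.3 were used. Alternatives covered filters, thresholds, scaling, thinning, doublets, the added CPM and the comparison cells. The limit of endothelial-rich barcodes and the depth weighting were added after the data were seen.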

Additional observations from a re-analysis of the deposited data

How the results depend on the processing

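The member share of control endothelial barcodes (37.2%) was 44.6% with a mitochondrial limit of 10%, 34.4% with none, 40.3% with at least 500 genes, 54.9% and 27.0% with at least 1 and 3 Wnt UMIs, 41.9% with at least 5 endothelial UMIs, 40.2% with no vascular limit, 11.8% at 1000 UMIs per barcode and 41.8% among endothelial-rich barcodes. In TAA (0) it was 1.26% with at least 1 Wnt UMI and 24.5% with no vascular limit. In TAA+C7.5 (9.92%) it was 17.4% and 4.96% with at least 1 and 3 Wnt UMIs, 16.2% with at least 5 endothelial UMIs, 25.6% with no vascular limit, 6.49% at 1000 UMIs per barcode and 16.9% among endothelial-rich barcodes. In TAA+C30 (0) it was 9.09% with no vascular limit. Libraries with at least 20 members (1) numbered 2 with at least 1 Wnt UMI and 3 with no vascular limit.

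The pericentral hepatocyte share in members (61.4%) was 64.0% without doublets, 63.4% with at least 3 Wnt UMIs, 63.5% with at least 5 endothelial UMIs, 62.7% thinned, 66.6% in endothelial-rich barcodes and 32.7% over hepatocyte-restricted genes. Over the restricted genes without Alb it was 54.4%. The median log2 ratio of the pericentral endothelial list (1.16) was 1.06 with at least 1 Wnt UMI, 0.79 with at least 5 endothelial UMIs, 0.69 thinned, 0.71 against all other endothelial barcodes, 0.79 with each cell weighted alike, 0.92 with 50 CPM added, 0.73 in endothelial-rich barcodes and 0.82 when these were depth-weighted. It was above 0 under every alternative run.

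Genes higher in members (39) numbered 18 with at least 5 endothelial UMIs, 22 thinned, 4 against all other endothelial barcodes, 199 and 13 with 1 and 50 CPM added and 18 in endothelial-rich barcodes. Genes lower (667) numbered 85, 145, 374, 1335, 127 and 17 under the same alternatives, 268 with each cell weighted alike and 30 depth-weighted. For TAA over control in Wnt-carrying cells, genes higher (325) numbered 656 and 92 with 1 and 50 CPM added, and genes lower (131) numbered 712 and 28, and 737 thinned. Signs turned for Clu (-3.33), which was 0.053 thinned, 0.89 in endothelial-rich barcodes and 0.20 depth-weighted. In endothelial-rich barcodes they turned for Spp1 (-3.50, then 0.72), Mpeg1 (-3.46, then 0.021), Sorbs2 (-3.28, then 0.51) and Ly6c2 (-3.23, then 0.33), and depth-weighted for Mpeg1 (0.25) and Tyrobp (-3.43, then 0.049), where genes under 30 UMIs in that comparison, such as Siglech and Cox6a2, were not counted. Spp1 in TAA over control (-2.43) was 0.36 with at least 1 Wnt UMI. Of 1141 checks of single genes, 10 changed sign from a main difference of at least 2-fold. Of the others, 665 stayed within the counting interval and 466 left it. Sign changes of genes with a main difference under 2-fold were not counted apart. The causes were not tested.

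No paired analysis was possible because each group is 1 library. With 1 mouse per group no difference between groups has a replicate error, and TAA+C30 rests on 12 endothelial-rich barcodes. Shallow barcodes reach 2 Wnt UMIs less often, so depth limits which cells can be counted.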
